A study of Mus musculus with 6 samples.

Results

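The genes described here encode the subunits of the proteasome, the CCT chaperonin, the heat shock proteins and the J-domain proteins. They were taken from the deposited table by symbol: 117 rows match the gene family patterns, 6 were left out by name and 4 were left out as pseudogene symbols. That leaves 107 genes of the 22057 in the table. The matching itself used no expression level. RNA was sequenced from cultured p53-null mouse neural progenitor cells, which divide and can give rise to neurons and to glia. The EF group (n = 3) is the control and spent 4 days in a stem cell medium that held EGF (epidermal growth factor), FGF (fibroblast growth factor) and heparin. The PDGFA group (n = 3) received platelet-derived growth factor A, at a labelled 20 ug/ml, for 4 days. Whether this group also kept EGF, FGF and heparin is not stated here. A difference between the groups is therefore one between culture conditions as a whole. Both groups carry the p53-null genotype and come from the same 3 mice, 62, 68 and 69, so each group has 1 library per mouse. Throughout, 3 values of a group are given in the order of mice 62, 68 and 69.

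The proteasome degrades proteins that have been tagged with ubiquitin. Its barrel, the 20S core, has rings of alpha subunits that gate the entrance and rings of beta subunits that cut the substrate. The 19S cap recognises ubiquitin, removes it, and unfolds the substrate with a ring of ATPases. Chaperones act before degradation is needed: HSP70 proteins bind unfolded stretches with the help of J-domain proteins, HSP90 completes the folding of kinases and receptors, CCT folds actin and tubulin in a closed chamber, and small heat shock proteins hold unfolded proteins back from aggregation. Heat shock factors raise many chaperone genes by binding repeats of GAA in their promoters, while the factor NRF1, encoded by Nfe2l1, raises proteasome genes when degradation is impaired.

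The label of these genes as proteasome subunits and cytosolic chaperones covers most of them but not all. Hspa9, Hspd1, Hspe1, Dnaja3, Dnajc11, Dnajc15 and Dnajc19 encode mitochondrial proteins, and Hspa13, Dnajc1 and Dnajc10 encode proteins of the secretory pathway. Psmd5, Psmd9 and Psmd10 are assembly factors of the 19S cap and not subunits of the finished particle. Hspb11 encodes a protein of intraflagellar transport. Psmc3ip matched by symbol only: it encodes a partner of the recombinases of meiosis and is kept apart from the proteasome genes in every count.

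Promoter sequences, where one could be matched, show which of these genes carry the letters that heat shock factors read. RefSeq sequences of GRCm38.p6, reaching from 250 bases before to 50 bases after the start of a gene, were matched for 87 of the 107 genes. The other 20, among them Hsp90aa1 and Hsp90ab1, had no matched sequence and were not searched. A heat shock element of 3 units, searched as GAANNTTCNNGAA on both strands, lay in 4 of the 87 (4.6%), which are Hspd1, Hspe1, Hsph1 and Dnajb6. The share over all 27025 genes with such a sequence was 0.662%. Hspd1 and Hspe1 encode the mitochondrial chaperonin and its lid, sit head to head with 215 bases between their RefSeq starts, and share the element. The stretches of 30 bases around the elements are shown because these 4 genes are the ones of the 87 that carry it, with the element in capitals. The first lies at chr1:55088053-55088082 on the plus strand, the second at chr5:149636279-149636308 on the minus strand just after the start, and the third at chr5:29735844-29735873 on the plus strand.
Hspd1 and Hspe1: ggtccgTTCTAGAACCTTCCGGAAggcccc
Hsph1: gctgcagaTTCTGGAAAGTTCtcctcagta
Dnajb6: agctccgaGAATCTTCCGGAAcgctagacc

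The shorter form with 2 units, GAANNTTC, which reads the same on both strands and lies inside every 3-unit match, was present in 15 of the 87 genes (17.2%) and in 9.04% of all genes. Of the small heat shock proteins it was present in 4 of 5, and of the proteasome genes in 1 of 30, Psmb5. The letters CCAAT, searched on both strands, were present in 36 of the 87 (41.4%) and in 41.1% of all genes. The 150 bases before the start of 4 heat shock genes that are described further on are shown next, with GAANNTTC and CCAAT (or ATTGG, its reverse complement) in capitals. The Hspa1a and Hspa1b stretches lie on the minus strand at chr17:34972157-34972306 and chr17:34959239-34959388 and are identical at 149 of 150 bases. Hspb1 lies on the plus strand at chr5:135887769-135887918, and Hspb8 on the minus strand at chr5:116422865-116423014.
Hspa1a: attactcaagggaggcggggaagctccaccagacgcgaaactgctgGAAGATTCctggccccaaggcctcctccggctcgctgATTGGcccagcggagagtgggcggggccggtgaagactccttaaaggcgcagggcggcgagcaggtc
Hspa1b: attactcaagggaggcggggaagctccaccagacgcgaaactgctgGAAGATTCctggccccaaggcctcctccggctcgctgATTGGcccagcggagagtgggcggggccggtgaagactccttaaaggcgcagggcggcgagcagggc
Hspb1: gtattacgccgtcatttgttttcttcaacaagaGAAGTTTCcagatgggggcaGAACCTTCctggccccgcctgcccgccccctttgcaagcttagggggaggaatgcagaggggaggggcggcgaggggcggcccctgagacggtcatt
Hspb8: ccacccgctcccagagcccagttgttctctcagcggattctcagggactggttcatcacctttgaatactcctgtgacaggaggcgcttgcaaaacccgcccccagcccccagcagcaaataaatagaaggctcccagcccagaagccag
Hspb1 holds 2 matches of GAANNTTC, Hspa1a and Hspa1b hold 1 each together with 1 reversed CCAAT, and the Hspb8 stretch holds none of these letters. Hspb8 is nonetheless among the 4 small heat shock genes with GAANNTTC, since its match lies elsewhere in the bases searched, outside the stretch shown. A match is a description of the letters, and binding was not measured.

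The values are normalized counts, that is reads of a gene over the size factor of its library, from libraries of 27270246 to 39601349 recovered reads. Trp53, the gene that encodes p53, was listed at 988 to 2383 normalized counts in the 6 libraries. The part of the gene that the null allele lacks is not given in the sources used here, so these reads do not check the genotype. All 8 progenitor markers were in the table, with a summed level of 85825 to 197983 in EF and 67127 to 73695 in PDGFA. The summed level of 8 oligodendrocyte markers was 2449 to 3864 in EF and 285600 to 361511 in PDGFA, with Mog at 0 in every EF library, and that of 8 astrocyte markers 48246 to 87037 and 173435 to 282353. The sum of 6 genes of dividing cells was 40148 to 84454 in EF and 1800 to 2062 in PDGFA. Of 8 microglial markers 2 were in the table, summing to 5.73 to 44.7. These marker levels move with the groups in every comparison that follows, and their part in the results was not tested. In bulk RNA, more cells of a type and more RNA per cell cannot be told apart.

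Of the 107 genes, 102 had a mean normalized count of at least 10 and were tested. With limma on log2(normalized count + 1) and an adjusted p under 0.05, 14 rose in PDGFA and 10 fell. Over all 17068 genes tested, 21.8% rose and 18% fell. The median log2 difference of the 102 genes was -0.15 and that of all genes -0.01. The PDGFA libraries lay wholly above the EF libraries for 19 of the 102 and wholly below for 23, against 29.2% and 26.3% of all genes. At least 2-fold changes were called for 10 rises and 3 falls, against 15.5% and 12.1% of all genes. The balance of calls moved with the scaling: 12 rose and 17 fell with library totals, and 14 rose and 16 fell with upper quartiles. The shares of all genes moved too, to 19.5% and 20.6% with library totals and to 21.4% and 19.5% with upper quartiles. It moved further with 1 library: without EF 62 the counts were 16 and 26, against 24.7% and 22.5% of all genes, and without EF 69 the median was 0.06.

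**Figure D1:**
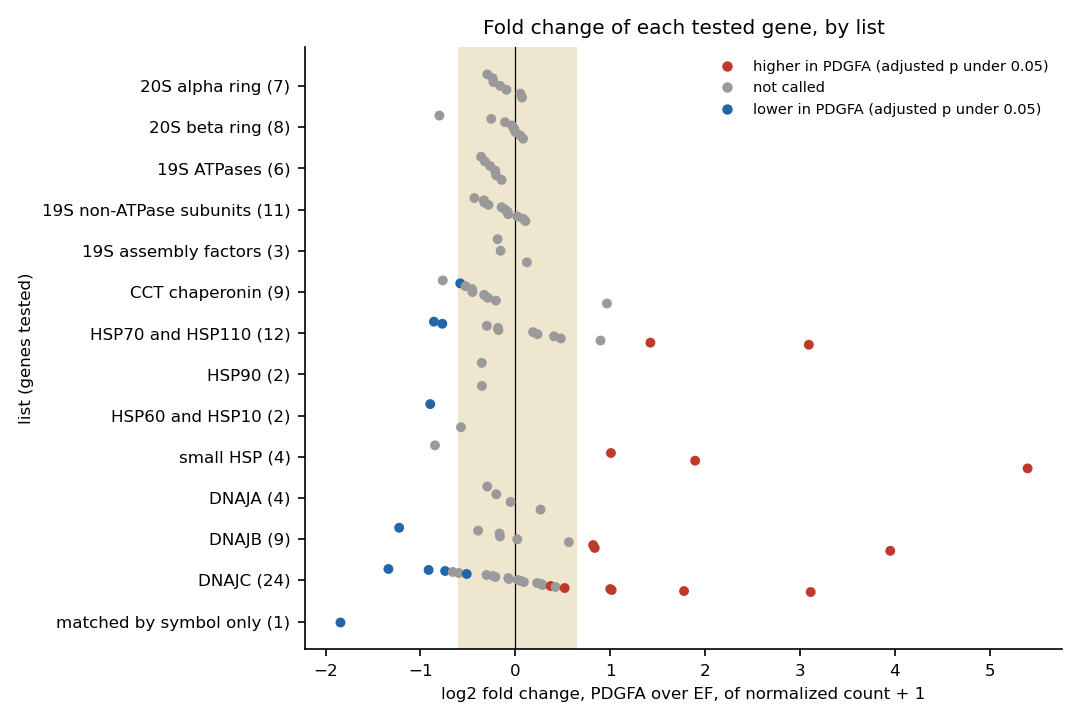
Log2 fold change, PDGFA over EF, of normalized count + 1 on the x axis for each of the 102 tested genes, in rows by list with the number tested, coloured by call; the shaded band holds the central 50% of all 17068 genes. The 35 proteasome genes are uncalled and lie within the band except Psmb10 at -0.80, while called genes appear among the heat shock and J-domain proteins and reach 5.40 for Hspb8.

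No proteasome gene passed the test. Of 35 tested genes (7 alpha subunits, 8 beta subunits, 6 ATPases, 11 other 19S subunits and 3 assembly factors) 0 rose and 0 fell by limma, while 39.8% of all genes were called, and 43.7% of the genes with a mean from 1000 to under 10000 normalized counts. At an unadjusted p under 0.05 there was 1, Psmb10. edgeR and DESeq2 each called the same gene as lower and no other. The fold changes ran from -0.80 to 0.12 on the log2 scale with a median of -0.14. On the lower side lay 26 of 35 (74.3%), against 50.5% of all genes. The 95% confidence interval stayed within 2-fold in either direction for 34 of the 35 (97.1%), against 35.3% of all genes. An interval that includes no change does not show that the levels were equal.

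The catalytic beta subunits illustrate the size of these differences. Psmb5, which carries the chymotrypsin-like activity, was at 498, 794 and 941 normalized counts in EF and 759.6, 743 and 612 in PDGFA. All 3 PDGFA libraries lay inside the EF range, and the log2 fold change was -0.04 ± 0.25 (SE; 95% confidence interval -0.62 to 0.55; adjusted p = 0.924). Psmb6, the caspase-like subunit, was at 2458, 3324 and 4154 in EF and 3639, 3475 and 2979.9 in PDGFA, again inside the EF range (log2 fold change 0.05 ± 0.21, adjusted p = 0.865). Psmb7, the trypsin-like subunit, was at 2318, 3496 and 4014 in EF and 2768, 2761 and 2509.5 in PDGFA. The groups overlapped here too (-0.25 ± 0.21, adjusted p = 0.368), and 34.9% of the Psmb7 exon bases are shared with Nek6 on the other strand, which this library type does not separate. Psmb10, which takes the place of Psmb7 in the immunoproteasome, was at 244, 477 and 361 in EF and 189, 198 and 211 in PDGFA. Its groups did not overlap, and it stayed just outside the threshold (-0.80 ± 0.27, adjusted p = 0.0519). Over its 20 alternative settings the adjusted p ran from 0.0071 to 0.346.

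Per kilobase of exon, Psmb6 had the highest level of the proteasome genes, with 4150.2 normalized counts per kb in EF and 4216 in PDGFA. Psma7, an alpha subunit, followed with 3206 and 2920.0. The scaffold subunit Psmd2 was highest of the non-ATPase 19S genes (2922 and 2874 per kb), and Psmc3 of the ATPases (2362 and 1989.6 per kb). Psmb5 had 828 and 784 per kb. The lowest tested levels were those of Psmb10, with 275 per kb in EF and 152 in PDGFA, and of the assembly factors, of which Psmd9 was highest with 404 and 354 per kb. By library, Psma7 was at 2097, 2733 and 3962 normalized counts in EF and 2954, 2757 and 2295 in PDGFA (log2 fold change -0.09 ± 0.24, adjusted p = 0.78). Psmd2 was at 5833, 9478 and 10645 in EF and 8737, 8706 and 8091 in PDGFA (0.02 ± 0.23, adjusted p = 0.949). Both genes had every PDGFA library inside the EF range. Psmd9 was at 1048, 955 and 1144 in EF and 858, 987 and 916 in PDGFA, with groups that overlapped (-0.19 ± 0.14, adjusted p = 0.338).

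Among the 19S subunits the ATPases all lay on the lower side, as did 50.5% of all genes, with fold changes of -0.36 to -0.14 on the log2 scale. Psmc3 was at 2866, 3777 and 4949 in EF and 3376, 3289.5 and 3099 in PDGFA (-0.21 ± 0.20, adjusted p = 0.435). Psmc6 was at 2829.9, 2677 and 3762 in EF and 2558, 2469 and 2320.5 in PDGFA. It was the 1 other proteasome gene besides Psmb10 with groups that did not overlap, and it was not called (-0.32 ± 0.16, adjusted p = 0.152). Of the 35 tested proteasome genes 2 thus lay wholly below EF and 0 wholly above, against 26.3% and 29.2% of all genes. Psmd14 removes ubiquitin from the substrate at the mouth of the cap. It was at 1924, 2487 and 3222 in EF and 1955, 1893 and 1699 in PDGFA, with groups that overlapped in 1 library and a fold change of -0.43 ± 0.20 (adjusted p = 0.123). Psmd4, a ubiquitin receptor, was at 2234, 2624 and 3330.3 in EF and 2686, 2591 and 2374 in PDGFA, all within the EF range. Psmb10, Psmc6 and Psmd4 are outside the rule for named genes, as are Psmb7 and Psmd14, and were chosen after their values were seen.

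The spread of the proteasome genes lay in the EF group. Summed over the 36 genes, the level came to 72859, 97832 and 123926 in EF and 91066, 89695 and 82333 in PDGFA, a ratio of PDGFA to EF of 0.893. EF held both the lowest and the highest library. In 32 of the 35 tested genes (91.4%) the EF libraries stood in the same order, lowest in mouse 62 and highest in mouse 69, as they did in 28.8% of all genes. The median ratio of EF 69 to EF 62 was 1.73 for the proteasome genes and 1.07 for all genes. In PDGFA the library of mouse 69 was the lowest for 31 of 35 (88.6%), against 41.4% of all genes. The median SD on the log2 scale was 0.40 in EF and 0.08 in PDGFA, against 0.38 and 0.172 over all genes. In 28 of the 35 (80.0%) every PDGFA library lay inside the EF range, against 18.6% of all genes. The summed level of the dividing-cell markers had the same order in EF, with 40148, 61928 and 84454, and the EF size factors were 1.04, 0.888 and 0.782. Their part in the order of the proteasome genes was not tested.

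The side on which the proteasome genes lay changed when single EF libraries were left out. Without EF 62 all 35 lay on the lower side, the median was -0.33, and 8 were called as lower (22.9%), which was close to the 22.5% of all genes called lower in that fit. The 8 were Psmb7, Psmd14, Psma5, Psmd8, Psma1, Psmb10, Psmd3 and Psmc1. Without EF 69 the median was 0.06, 21 of the 35 lay on the higher side, and none was called. With library totals or upper quartiles in place of the deposited scaling, 2 were called as lower, Psmd14 and Psmb10.

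**Figure D2:**
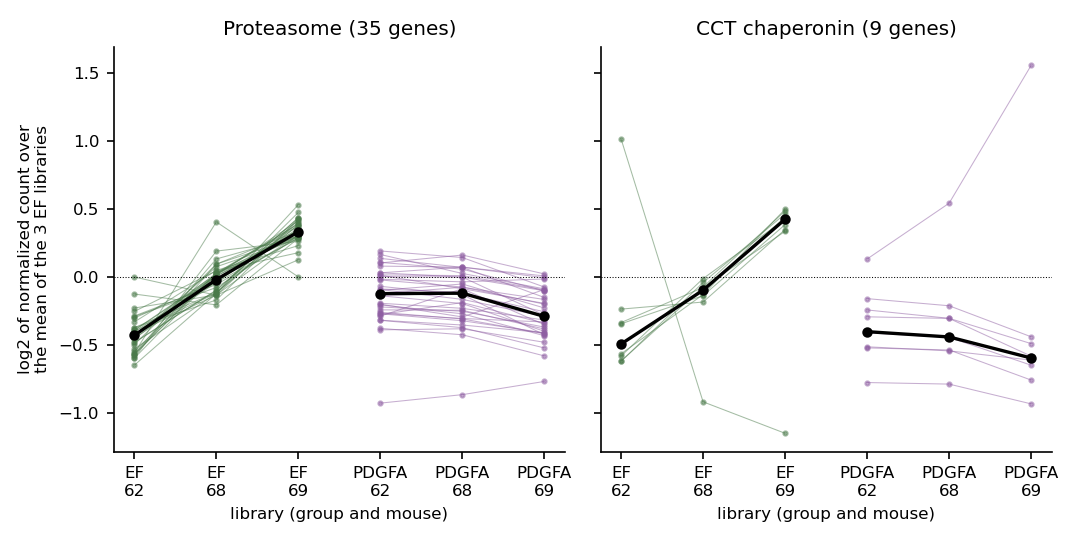
Log2 of the normalized count over the mean of the 3 EF libraries on the y axis for each tested proteasome gene (35) and CCT gene (9) in the 6 libraries on the x axis; thin lines join the values of 1 gene within a group (green EF, purple PDGFA), black marks the median, and the order of the mice carries no meaning. The EF libraries spread from mouse 62 to mouse 69, with a median ratio of 1.73 for the proteasome, and the 3 PDGFA libraries lie close together.

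The CCT chaperonin is a double ring built from 8 kinds of subunit. Of its 9 tested genes 1 fell (11.1%, against 18% of all genes) and 0 rose. The median of the log2 values was -0.45, and 8 of 9 lay on the lower side under every scaling tried. With the deposited scaling 50.5% of all genes lay on that side. The summed level was 49114, 63964 and 91301 normalized counts in EF and 50928, 49793 and 43811 in PDGFA. EF 62 lay between PDGFA libraries and the other EF libraries lay above all of them. The gene that fell was Cct5, the subunit with the highest level per kilobase, at 8226, 9836 and 13109 in EF and 7228, 7152 and 6134 in PDGFA. Its groups did not overlap, at -0.58 ± 0.19 on the log2 scale (SE, n = 3 and 3, adjusted p = 0.0472). The call did not hold with the mouse as a block (adjusted p = 0.087), nor without EF 68 (0.0833), EF 69 (0.0786), PDGFA 62 (0.102), PDGFA 68 (0.117) or PDGFA 69 (0.153), in a range of adjusted p from 0.0128 to 0.191 over 20 alternatives.

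Tcp1, Cct2 and Cct4, named after their values were seen, had groups that did not overlap and were not called by limma with the deposited scaling. Tcp1, the subunit that gave the complex its older name, was at 6381, 9304 and 13730.3 in EF and 5715, 5670.0 and 5126 in PDGFA, every PDGFA library being below every EF library (-0.76 ± 0.26, adjusted p = 0.0519). Acat3 overlaps 20.0% of the Tcp1 exon bases on the other strand and was itself higher in PDGFA by 4.42 on the log2 scale (adjusted p = 0.000282). Cct2 was at 8046, 9289.6 and 13349 in EF and 7156, 7008 and 6686 in PDGFA (adjusted p = 0.0709). Cct4 was at 5013, 5198 and 7526 in EF and 4469, 4349 and 3906 in PDGFA (adjusted p = 0.083). Both had their PDGFA libraries below their EF libraries. With library totals and with upper quartiles these 3 genes passed as lower (0.0178 and 0.0223 for Tcp1, 0.0229 and 0.0258 for Cct2, 0.0322 and 0.0333 for Cct4). DESeq2 called Tcp1 (0.0117) and Cct2 (0.0333), and edgeR called Tcp1 (0.0381). Cct6b, a copy of Cct6a best known from testis, was the 1 gene on the higher side, at 17.2, 4.50 and 3.84 in EF and 9.34, 12.4 and 25.1 in PDGFA, with groups that overlapped. Without EF 62, 6 genes fell (Tcp1, Cct2, Cct4, Cct5, Cct7 and Cct8) and 1 rose (Cct6b), while 22.5% and 24.7% of all genes did so in that fit. Without EF 69 the median of the 9 genes was -0.21.

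Of the 20 heat shock proteins tested, 5 rose (25%) and 3 fell (15%), shares near the 21.8% and 18% of all genes, and their median on the log2 scale was 0.00. Hspb8, Hspa2, Hspb1, Hspa1a and Hspb11 rose, the mitochondrial Hspa9 and Hspd1 and the ribosome-bound Hspa14 fell, and the abundant cytosolic members Hspa8, Hsp90aa1 and Hsp90ab1 were not called. Hspb8, a small heat shock protein that works with the co-chaperone Bag3 in the autophagy of misfolded proteins, had the largest rise of all 102 genes. It lies at chr5:116408491-116422864 and was at 19.2, 46.2 and 43.5 normalized counts in EF and 1183, 1724 and 1553 in PDGFA. Every PDGFA library was far above every EF library: the mean went from 36.3 ± 14.9 to 1487 ± 277 (SD, n = 3 each), 41.0-fold, or 5.40 ± 0.37 on the log2 scale (SE, adjusted p = 4.84e-05). It was called in all 20 alternatives. Hspa2, an HSP70 protein first known from spermatogenic cells, was at 297, 531 and 373 in EF and 3484, 4015 and 2636 in PDGFA. Those groups were also wide apart, 401 ± 119.6 against 3378 ± 696 (8.43-fold, log2 fold change 3.09 ± 0.25, adjusted p = 0.000107), and the call held in all 20 alternatives.

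Hspb1, which encodes HSP27, and Hspa1a, the classical stress-induced HSP70, rose from levels near the floor. Hspb1 was at 3.83, 3.38 and 6.39 in EF and 11.9, 20.1 and 28.7 in PDGFA, with no overlap and a log2 difference of 1.90 ± 0.48 (adjusted p = 0.0175). Without EF 68, PDGFA 68 or PDGFA 69 the Hspb1 call was lost (adjusted p 0.0533, 0.0731 and 0.0687, in a range of 0.0104 to 0.179). Hspa1a was at 10.5, 9.01 and 14.1 in EF and 25.5, 33.4 and 35.8 in PDGFA, again with no overlap (1.42 ± 0.38, adjusted p = 0.0204). In the fit with mouse as a block it stood at 0.0548, and without EF 68, PDGFA 68 or PDGFA 69 it was 0.0578, 0.0955 and 0.0764, in a range of 0.00542 to 0.224. Hspa1b was at 29.7, 15.8 and 20.5 in EF and 29.7, 59.2 and 37.6 in PDGFA, where the lowest PDGFA library barely exceeded the highest EF library, and it was not called (0.90 ± 0.42, adjusted p = 0.127). Hspa1a shares 58.8% of its 50-base stretches with Hspa1b, and Hspa1b 62.3% with Hspa1a, so the split of reads between them is uncertain. Hspb11, the intraflagellar transport gene, was at 169, 159 and 116 in EF and 296, 272 and 317 in PDGFA, all above EF (1.01 ± 0.23, adjusted p = 0.0123). Its call was lost without PDGFA 62, PDGFA 68 or PDGFA 69 (0.0538, 0.0507 and 0.055, in a range of 0.000309 to 0.0977). Hspb6, named after its values were seen, was the small heat shock protein on the lower side, at 751, 341 and 497 in EF and 249, 328 and 267 in PDGFA. Its groups did not overlap and it was not called by limma (-0.85 ± 0.30, adjusted p = 0.0587), but it was called as lower by edgeR (0.0495) and DESeq2 (0.0172).

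Of the mitochondrial genes listed at the start, which may not be all of them, Hspa9 and Hspd1 fell. For the others on that list, Hspe1, Dnaja3, Dnajc11, Dnajc15 and Dnajc19, limma made no call. The limma adjusted p was 0.158 for Dnaja3, 0.753 for Dnajc11, 0.441 for Dnajc15 and 0.326 for Dnajc19. Hspa9, or mortalin, pulls proteins into the mitochondrial matrix. It was at 15692, 11039 and 15757 in EF and 7808, 7699 and 7623 in PDGFA, with no overlap and a narrow PDGFA spread (log2 fold change -0.86 ± 0.17, adjusted p = 0.00696). Hspd1, the HSP60 chaperonin, was at 6159, 9085 and 13830.0 in EF and 5260.4, 4991 and 4565 in PDGFA. The PDGFA libraries were all below EF (-0.90 ± 0.28, adjusted p = 0.0356), and the call was lost without EF 68, PDGFA 62, PDGFA 68 or PDGFA 69 (0.0784, 0.0791, 0.0963 and 0.111, in a range of 0.00426 to 0.171). Hspe1, which encodes the lid of that chamber and shares the promoter stretch shown above, was at 1329, 1517 and 2329 in EF and 1214, 1145 and 1026 in PDGFA. Its groups did not overlap either, but the difference was not called by limma (-0.57 ± 0.22, adjusted p = 0.0743). Hspe1 did pass as lower with DESeq2 (0.0386), library totals (0.0291) and upper quartiles (0.0321), and without EF 62 (0.0266). Hspa14, an HSP70 protein bound to ribosomes, was the remaining fall, at 1021, 1226 and 1666 in EF and 743, 785 and 721 in PDGFA, with no overlap (-0.77 ± 0.20, adjusted p = 0.0186). Its call was lost without PDGFA 62, PDGFA 68 or PDGFA 69 (0.0626, 0.0604 and 0.0669, in a range of 0.00172 to 0.117). Gm45902 overlaps 17.9% of the Hspa14 exon bases on the same strand and was not called by limma (-0.34, adjusted p = 0.229).

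The abundant cytosolic chaperones had a wide spread in EF. Hsp90ab1, the constitutive HSP90, had the highest level per kilobase of all 107 genes (20870.0 normalized counts per kb in EF and 15865 in PDGFA), with 38669, 49275 and 69833 normalized counts in EF and 40716, 41189 and 38032 in PDGFA (log2 fold change -0.35 ± 0.25, 95% confidence interval -0.94 to 0.23, adjusted p = 0.296). Hspa8, the constitutive HSP70 that also strips clathrin from vesicles, was at 14476, 23668 and 38452 in EF and 19999, 19561 and 18041 in PDGFA (-0.30 ± 0.33, interval -1.07 to 0.47, adjusted p = 0.501). Both genes overlapped between the groups, with EF 69 the highest library of the 6. Hsp90aa1, the inducible HSP90, was at 4742, 7863 and 12994 in EF and 6753, 6411 and 5376 in PDGFA (-0.35 ± 0.34, adjusted p = 0.436, with 0.0449 without EF 62 in a range of 0.0449 to 0.975). Hsph1, an HSP110 that recharges HSP70 with nucleotide, was at 2405, 3173 and 5077 in EF and 3696, 3055 and 2369 in PDGFA (-0.18 ± 0.29, adjusted p = 0.655). These groups overlapped too. Of the 4 searched genes with the 3-unit heat shock element shown above, Hspd1 fell, and Hspe1, Hsph1 and Dnajb6 were not called by limma with the deposited scaling. Hsp90aa1 and Hsp90ab1 had no promoter sequence to search.

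**Figure D3:**
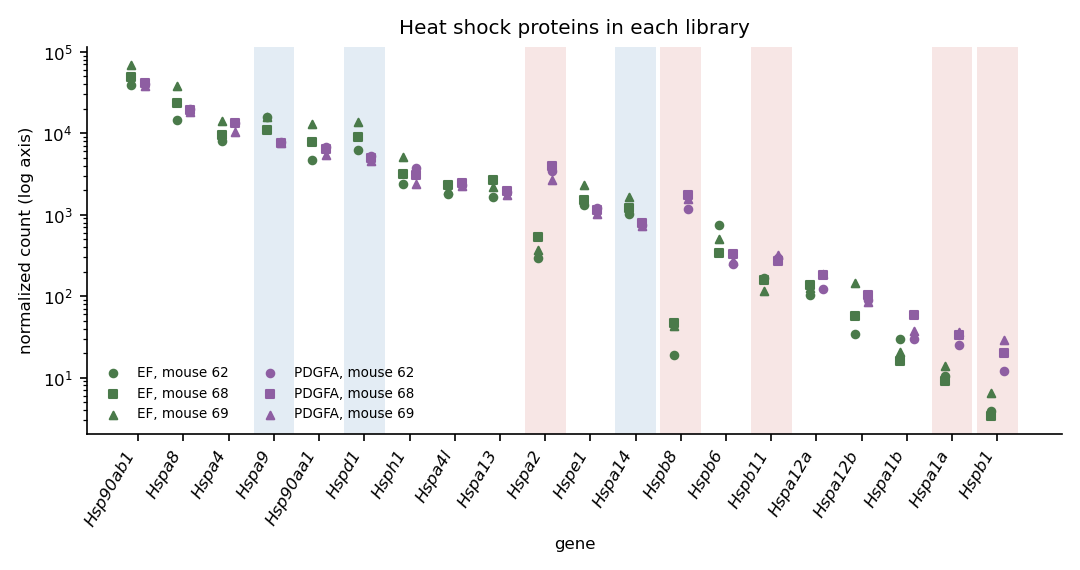
Normalized count on a log axis for the 20 tested heat shock protein genes, ordered by mean level on the x axis, in the 3 EF libraries (green) and the 3 PDGFA libraries (purple) with a marker shape per mouse; red and blue shading marks genes called higher and lower. Hspb8 and Hspa2 lie far apart between groups, and Hsp90ab1 at the top overlaps, with EF 69 the highest library.

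The J-domain proteins, which pick the substrates of HSP70 and start its ATPase, are the largest group here. Of 37 tested, 9 rose (24.3%) and 5 fell (13.5%), near the 21.8% and 18% of all genes, and with library totals 7 rose and 6 fell, against 19.5% and 20.6%. The 4 DNAJA genes, which include the general partners of Hspa8, were not called: Dnaja1 was at 2896, 3121 and 4437 in EF and 4156, 4372 and 3836 in PDGFA (log2 fold change 0.27 ± 0.18, adjusted p = 0.282), and Dnaja2 at 2864, 3891 and 5473 and at 3487, 3655 and 3153 (-0.20 ± 0.23, adjusted p = 0.521). Dnajb1, the classical stress-induced HSP40, was at 1004, 1565 and 1975 in EF and 1271, 1466 and 1189 in PDGFA. All PDGFA libraries of Dnajb1 lay within the EF range (-0.16 ± 0.25, adjusted p = 0.636). Of Dnaja1 and Dnaja2 the groups overlapped as well. Dnajb12, a J-domain protein of the endoplasmic reticulum membrane and the DNAJB gene with the highest level per kilobase, was at 2204, 2405 and 2676 in EF and 2279.7, 2147 and 2049 in PDGFA, also with overlap (-0.17 ± 0.13, adjusted p = 0.348). Without EF 69 the Dnaja1 difference was called as higher (adjusted p = 0.0289, in a range of 0.0289 to 0.733).

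Dnajb13, Dnajc6 and Dnajc28 had the largest rises of the J-domain genes. Dnajb13, at chr7:100501716-100514960, encodes a protein of the radial spokes of cilia and sperm tails. It was at 0.958, 2.25 and 0 normalized counts in EF and 22.1, 38.2 and 25.1 in PDGFA. With 3 reads over the EF libraries and 94 over the PDGFA libraries the ratio was 25.5, with a 95% interval from counting error alone of 8.45 to 126 (log2 fold change 3.95 ± 0.56, adjusted p = 0.00133). Ucp2 overlaps 11.8% of the Dnajb13 exon bases on the other strand and was not called by limma (-1.24, adjusted p = 0.111). Dnajc6, at chr4:101496648-101642799, encodes auxilin, which brings Hspa8 to clathrin-coated vesicles in the nervous system. It was at 42.1, 51.8 and 39.6 in EF and 330.2, 336 and 536 in PDGFA, 9.0-fold higher (3.11 ± 0.29, adjusted p = 0.000199). Dnajc28 was at 77.6, 57.4 and 57.5 in EF and 177, 251 and 240.1 in PDGFA (1.78 ± 0.28, adjusted p = 0.00215). For all 3 genes every PDGFA library lay above every EF library. In the alternatives run, Dnajb13 and Dnajc6 were called in all, and Dnajc28 in 19 of 20.

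Smaller rises were called for 6 J-domain genes, none with overlapping groups. Dnajb4, a partner of HSP70 in muscle and other tissues, was at 1034, 922 and 788 in EF and 1446, 1544 and 1855 in PDGFA (0.82 ± 0.17, adjusted p = 0.00704). Dnajb2, enriched in neurons, was at 512, 605 and 837 in EF and 979, 1162 and 1301 in PDGFA (0.84 ± 0.22, adjusted p = 0.0194). Dnajc12, a co-chaperone of the aromatic amino acid hydroxylases, was at 58.4, 76.6 and 63.9 in EF and 113, 125 and 171 in PDGFA (1.02 ± 0.29, adjusted p = 0.0274). All these libraries separated by group. Dnajc7, which links HSP70 and HSP90, was at 4948, 3586 and 4758 in EF and 6631, 6167 and 6093 in PDGFA (0.52 ± 0.16, adjusted p = 0.0343). Nkiras2 overlaps 12.3% of the Dnajc7 exon bases on the other strand and was itself called higher by limma (0.47, adjusted p = 0.0200). Dnajc18 and Dnajc5, outside the naming rule and chosen after their values were seen, complete the rises. Dnajc18 went from 2381, 2439.8 and 1843 to 4029, 4431 and 4808 (1.0 ± 0.16, adjusted p = 0.00213), and Dnajc5, the cysteine string protein of synaptic vesicles, from 4781, 5314 and 4932 to 6664, 6761 and 6040.5 (0.37 ± 0.12, adjusted p = 0.0468). With the mouse as a block the calls of Dnajc12, Dnajc7 and Dnajc5 were lost (adjusted p 0.06, 0.0608 and 0.127), and with library totals those of Dnajc7 and Dnajc5 (0.0786 and 0.0885). Dnajb2 was lost without EF 68, PDGFA 68 or PDGFA 69 (0.0541, 0.0751 and 0.0787, range 0.00382 to 0.162). Dnajc12 was lost without PDGFA 62, 68 or 69 (0.0597, 0.0939 and 0.109, range 0.00372 to 0.145). Dnajc7 was lost without EF 68 or PDGFA 62, 68 or 69 (0.0703, 0.121, 0.109 and 0.0858, range 0.0182 to 0.255), and Dnajc5 without EF 68, EF 69 or PDGFA 62, 68 or 69 (0.0558, 0.0647, 0.162, 0.197 and 0.0816, range 0.0167 to 0.26).

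The J-domain genes that fell include a histone chaperone and proteins of the endoplasmic reticulum and endosomes. Dnajc9, which carries newly made histones H3 and H4, was at 997, 1697 and 2713 in EF and 572, 710.4 and 698 in PDGFA. No PDGFA library reached the EF range, and the EF libraries had the same order as the dividing-cell markers (log2 fold change -1.34 ± 0.34, adjusted p = 0.017). That order was present in 63.7% of the 102 tested members and in 28.8% of all genes, and its relation to cell division was not tested. Dnajb5 was at 1592, 2325 and 2868 in EF and 1344, 966 and 639.7 in PDGFA (-1.22 ± 0.31, adjusted p = 0.018). Dnajc25 was at 358, 356 and 437 in EF and 205, 234 and 173 in PDGFA (-0.91 ± 0.21, adjusted p = 0.0124). Neither gene overlapped between the groups. Dnajc10, a reductase of the endoplasmic reticulum, was at 2969, 4072 and 4706 in EF and 2142, 2387 and 2388 in PDGFA (-0.74 ± 0.19, adjusted p = 0.0167), and Dnajc13, which acts on endosomes, was at 5679.9, 4876 and 5404 and at 3780.3, 3755 and 3632 (-0.51 ± 0.12, adjusted p = 0.0137). These 2 genes did not overlap either. With the mouse as a block Dnajc13 stood at 0.0508. Without PDGFA 69 all 5 falls were lost: 0.0509 for Dnajc9 (range 0.000261 to 0.102), 0.0566 for Dnajb5 (0.00148 to 0.119), 0.0511 for Dnajc25 (0.000168 to 0.0826), 0.0511 for Dnajc10 (0.00147 to 0.134) and 0.0573 for Dnajc13 (0.000685 to 0.107). Without PDGFA 62 the adjusted p was 0.0596 for Dnajc9, 0.0665 for Dnajc10 and 0.0572 for Dnajc13. Without PDGFA 68 it was 0.0539 for Dnajb5, 0.0569 for Dnajc10 and 0.0722 for Dnajc13, and for Dnajb5 it was 0.053 without EF 68 and 0.051 without EF 69.

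**Figure D4:**
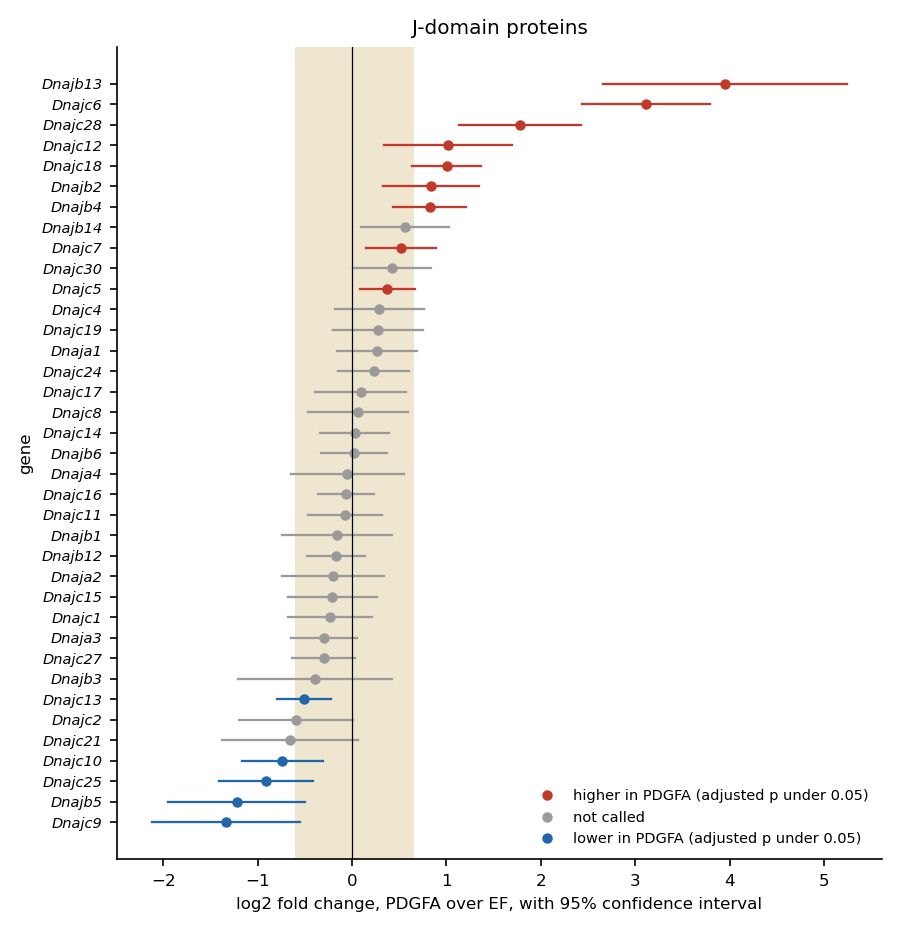
Log2 fold change, PDGFA over EF, with its 95% confidence interval on the x axis for each of the 37 tested J-domain genes on the y axis, coloured by call, with the shaded band holding the central 50% of all 17068 genes. Dnajb13 at 3.95 and Dnajc6 at 3.11 lie apart from the other genes, and Dnajc9 at -1.34 is the lowest.

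Psmc3ip, the gene matched by symbol only, fell. It lies at chr11:101091823-101095436 and was at 292, 359 and 665 normalized counts in EF and 117, 120.3 and 103 in PDGFA. Every PDGFA library was below every EF library, with means of 439 ± 199 and 113 ± 9.20 (SD, n = 3 each), which is -1.85 ± 0.33 on the log2 scale (SE, adjusted p = 0.00374). It was called in all 20 alternatives. Mlx overlaps 29.8% of its exon bases on the other strand and was not called (-0.25, adjusted p = 0.25). Among all members, 25 have more than 5% of their exon bases shared with another annotated gene.

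The 5 members left out of the test had few reads. Hspa1l, an HSP70 of the testis, was at 0, 0 and 1.28 in EF and 15.3, 21.0 and 16.1 in PDGFA. That is 1 read against 58, a ratio of 47.1 with a 95% counting interval of 8.13 to 1893, and 71.9% of its exon bases are shared with Gm10501 on the other strand. Hspb2, a small heat shock protein of muscle, was at 0, 1.13 and 1.28 in EF and 3.39, 1.91 and 8.96 in PDGFA, or 2 reads against 16 (ratio 6.5, counting interval 1.53 to 58.3), and 30.2% of its exon bases are shared with Cryab on the other strand. Hspb3 was at 3.83, 3.38 and 3.84 in EF and 5.94, 11.5 and 17 in PDGFA. Psmb11, the beta subunit of the thymus proteasome, stayed at 2.25 to 6.70 in the 6 libraries, and Dnajc22 at 0 to 4.50. In Hspa1l, Hspb2 and Hspb3 the groups did not overlap, and in the other 2 genes they did.

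Genes that work with the proteasome and the chaperones were taken from lists of 79 genes, of which 78 were in the table and 76 were tested. Of these 9 rose (11.8%) and 10 fell (13.2%), against 21.8% and 18% of all genes, and the median log2 value was -0.25. With the mouse as a block 5 rose and 4 fell, against 18.8% and 15.4% of all genes in that fit. With library totals 7 rose and 19 fell, against 19.5% and 20.6%. Without EF 62 the counts were 9 and 27, against 24.7% and 22.5%. Of the 6 proteasome assembly genes 0 were called by limma, with 2 at an unadjusted p under 0.05, and 4 had PDGFA libraries wholly below the EF libraries, as 26.3% of all genes did. Of the immunoproteasome list, which holds Psmb10 as well, Psmb8 and Psmb9 were too low to be tested.

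Some partners of the proteasome were called, in both directions. Of 5 activator and inhibitor genes 2 rose and 1 fell. Of 9 ubiquitin receptors and deubiquitinases 0 rose and 3 fell. Among 6 genes of ubiquitin and its activation 0 rose and 1 fell. Over all genes 21.8% rose and 18% fell. Uchl5 and Usp14 encode deubiquitinases that dock on the 19S cap, and both fell. Uchl5 was at 556, 786 and 1336 in EF and 318, 351 and 332 in PDGFA (log2 fold change -1.32 ± 0.31, adjusted p = 0.0123). Usp14 was at 2431, 2953 and 3764 in EF and 1866, 1806 and 1615 in PDGFA (-0.77 ± 0.18, adjusted p = 0.0128), and was lost without PDGFA 69 (0.0548, range 0.000739 to 0.104). In both genes no PDGFA library reached the EF range. Psme1, a subunit of the 11S activator, rose from 628, 569 and 775 to 861, 1019.8 and 1134 (0.61 ± 0.18, adjusted p = 0.0324), and was lost without EF 68, PDGFA 68 or PDGFA 69 (0.0867, 0.12 and 0.12, range 0.0121 to 0.268). Psmf1, an inhibitor of the 20S core, rose from 902, 897 and 896 to 1189, 1341 and 1331 (0.52 ± 0.13, adjusted p = 0.0174), and was lost with the block (0.0611) and without PDGFA 68 or 69 (0.105 and 0.071, range 0.0014 to 0.208). None of these groups overlapped. Psme4, the activator PA200, fell from 5162, 4953 and 6534 to 4105, 3828 and 3199 (-0.58 ± 0.16, adjusted p = 0.0271), and was lost with the block (0.0658) and without EF 69, PDGFA 62, 68 or 69 (0.0503, 0.0509, 0.0849 and 0.102, range 0.00751 to 0.115). Rps27a, which encodes ubiquitin fused to a ribosomal protein, fell by 0.53 ± 0.14 on the log2 scale (adjusted p = 0.0207), and was lost with the block (0.0559) and without PDGFA 62, 68 or 69 (0.0653, 0.0813 and 0.0805, range 0.00338 to 0.108).

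Of 12 co-chaperones of HSP70 3 rose and 1 fell, and of 12 co-chaperones of HSP90 2 rose and 0 fell, against 21.8% and 18% of all genes. Bag1 and Bag3 release nucleotide from HSP70, and both rose. Bag1 was at 1159, 1483 and 1993 in EF and 3697, 3756 and 3229 in PDGFA (1.24 ± 0.21, adjusted p = 0.00289). Bag3, the partner of Hspb8, was at 893, 882 and 1474 in EF and 1967, 2052 and 2233 in PDGFA (0.98 ± 0.22, adjusted p = 0.00984). Stub1, the ubiquitin ligase that marks HSP70 clients, fell from 2766, 2891 and 3670.4 to 1832, 1730.2 and 1698 (-0.82 ± 0.15, adjusted p = 0.00425). For these 3 genes the libraries separated by group. Cdc37l1, a relative of the kinase co-chaperone Cdc37, rose from 3705, 2570.4 and 2138 to 7759, 6397 and 7041 (1.37 ± 0.21, adjusted p = 0.0021). Unc45a, which guides HSP90 to myosin, rose from 1007, 951 and 889 to 1854, 1793 and 1717 (0.91 ± 0.13, adjusted p = 0.00131). Trap1, the mitochondrial HSP90, fell from 3875, 3255 and 4174 to 1893, 1878 and 2140.4 (-0.93 ± 0.14, adjusted p = 0.00204). It belongs to a list of 7 chaperones of mitochondria and the endoplasmic reticulum, of which 1 rose and 2 fell. Bag1, Cdc37l1, Unc45a and Trap1 were called in all 20 alternatives.

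Among the prefoldin and mitochondrial genes, Vbp1 and Clpb fell and Clpx rose. Vbp1, a prefoldin subunit that hands actin and tubulin to CCT, fell by 0.54 ± 0.14 on the log2 scale (adjusted p = 0.0175), and was lost with the block (0.0531) and without PDGFA 62, 68 or 69 (0.075, 0.0655 and 0.0658, range 0.00144 to 0.12). Clpb, which keeps proteins soluble in mitochondria, fell by 0.52 ± 0.16 (adjusted p = 0.0358), and was lost with the block (0.0581) and without EF 68, EF 69, PDGFA 62, 68 or 69 (0.0935, 0.0629, 0.128, 0.122 and 0.0716, range 0.00828 to 0.287). Clpx, the unfoldase of a mitochondrial protease, rose by 0.43 ± 0.15 (adjusted p = 0.0497), and was lost with the block (0.0921), with library totals (0.0603), with no filter on low values (0.061), with no mean trend (0.0864) and without EF 62, EF 68, PDGFA 62, 68 or 69 (0.0674, 0.108, 0.0881, 0.168 and 0.165, range 0.0264 to 0.314).

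Of the transcription factors known to raise these genes, Hsf1 fell, Hsf4 rose, and Hsf2, Nfe2l1 and Nfe2l2 were not called. Hsf1, the main heat shock factor, went from 2605, 2480.3 and 2729 to 2076, 1788 and 1735 (log2 fold change -0.48 ± 0.13, adjusted p = 0.0223). The Hsf1 groups did not overlap, and its call was lost in the blocked fit (0.0645) and without PDGFA 68 or PDGFA 69 (0.112 and 0.0876, range 0.00431 to 0.183). Hsf2 was at 1977, 1928 and 2061 in EF and 1675, 1602 and 1512 in PDGFA, without overlap and not called by limma (-0.32 ± 0.12, adjusted p = 0.0724), but called as lower by DESeq2 (0.033). Hsf4, a heat shock factor best known from the lens, rose from 16.3, 9.01 and 10.2 to 22.1, 41.1 and 58.2 (1.63 ± 0.47, adjusted p = 0.0294). It was lost with the block (0.0617) and without EF 68, EF 69, PDGFA 68 or PDGFA 69 (0.0814, 0.0607, 0.108 and 0.108, range 0.0134 to 0.237). Nfe2l1, which encodes NRF1, was at 8739.6, 8343 and 8344 in EF and 6990.2, 7364 and 8603 in PDGFA, with overlap (-0.15 ± 0.14, 95% confidence interval -0.47 to 0.16, adjusted p = 0.404). Nfe2l2, which encodes the oxidative stress factor NRF2, was at 1638, 1521 and 3208 in EF and 1515, 2063 and 2339 in PDGFA, with EF 69 the highest library and the groups overlapping (-0.04 ± 0.31, adjusted p = 0.925).

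**Figure D5:**
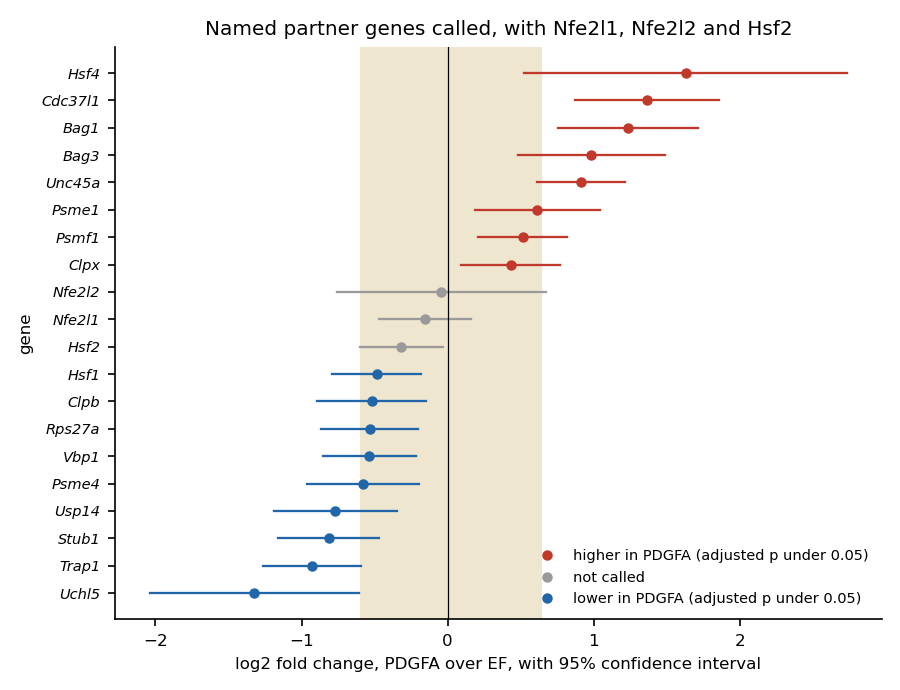
Log2 fold change, PDGFA over EF, with its 95% confidence interval on the x axis for the called partner genes described in the text and for Nfe2l1, Nfe2l2 and Hsf2 on the y axis, coloured by call, with the shaded band holding the central 50% of all 17068 genes. Hsf4, Cdc37l1, Bag1 and Bag3 lie highest, from 1.63 to 0.98, and Uchl5 lowest at -1.32.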

How the data were processed

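RNA of cultured p53-null mouse neural progenitor cells was sequenced in 6 libraries, 3 EF and 3 PDGFA, grouped by the sample titles. The authors deposited 1 table of normalized signal, in which the reads of 22057 genes had been divided by a size factor for each library. Per the submitters' processing notes, FastQC, STAR and DESeq2 were used with mm10 (GRCm38); versions, annotation release and the strand option of the counting were not given in the sources used here. The NEBNext Ultra II kit named in the labels' protocols does not mark strand. Dividing each value by what 1 read is worth gave whole reads for 100% of values within 0.001, and these reads entered edgeR and DESeq2 as alternatives.

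Members were matched by symbol. The members, the partner lists and the markers were chosen with earlier results of these data known. Log2(normalized count + 1) was fitted with limma 3.58.1 (R 4.3.3, mean trend, two-sided, no block) over the 17068 genes with a mean of at least 10, leaving out 4989, with Benjamini-Hochberg adjustment over all of them and a threshold of 0.05. A fold change is on that scale and understates low genes. edgeR 4.0.16 (quasi-likelihood) and DESeq2 1.42.0 were among 20 alternatives, which also changed the scaling, filter, pseudocount, trend, block and libraries. Same-numbered libraries come from 1 mouse per the labels, so the mouse pairs them; the deviations of same-mouse libraries from their group means correlated at -0.0906 (mouse 62), 0.110 (mouse 68) and -0.110 (mouse 69). The script was tested on simulated data. P-values measure the spread between 3 mice per group.

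Named genes were, per member list, up to 3 called rises and 3 called falls, the gene with the highest mean per kb of exon, genes called against the direction of their list, and 12 chosen genes; per partner list, up to 2 rises and 2 falls, with Nfe2l1, Nfe2l2, Hsf1 and Hsf2. Exon lengths are those of the longest principal transcript (GENCODE M21), which may not be the annotation the authors used. Counting intervals are exact binomial intervals at 95% (scipy). Results for some partner genes are not reported here, though the counts over the partner lists include them.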

Additional observations from a re-analysis of the deposited data

How the results depend on the processing

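No proteasome gene rose in any of the 20 alternatives, and the median of the proteasome genes and of CCT stayed below 0 under every scaling. The median of all genes moved by at most 0.06 on the log2 scale under any scaling. With library totals 2 proteasome, 4 CCT, 19 partner and 17 member genes fell, and with upper quartiles 2, 4 and 16 of the proteasome, CCT and all members. Over all genes 3513 fell with library totals and 3323 with upper quartiles, against 3076 in the reported fit. DESeq2 called 1 proteasome, 3 CCT, 5 heat shock and 18 partner genes as lower, edgeR 1 proteasome and 2 CCT genes, and TMM factors 2 CCT genes. The falls over all genes were 3746 with DESeq2, 3263 with edgeR and 3173 with TMM factors. With a minimum mean of 100, 1 proteasome gene fell and 3 heat shock genes rose. Hspb1 and Hspa1a lay below that minimum and were not tested there. In that fit 35 proteasome and 16 heat shock genes were tested. Among all genes with that mean 2508 fell and 2864 rose. The number of all genes tested there is not given here, so these counts cannot be read as shares. Without a mean trend 0 CCT and 6 partner genes fell, with 2769 falls over all genes. With the mouse as a replicate block 0 CCT genes fell, and 5 partner genes rose and 4 fell. In that fit 3213 of all genes rose and 2626 fell. Apart from the genes named above with it, the block changed no other call among the named genes. Without both libraries of mouse 62, 4 proteasome, 2 CCT and 16 partner genes fell, with 2876 falls over all genes. Without both of mouse 68, 0 CCT, 1 heat shock, 0 J-domain, 1 partner and 2 member genes fell, 2 heat shock, 3 J-domain, 3 partner and 5 member genes rose, and over all genes 1945 rose and 1335 fell. Without both of mouse 69, 0 CCT, 0 heat shock, 0 J-domain, 3 partner and 1 member genes fell, and 2 heat shock, 4 partner and 9 member genes rose. In the same fit 2493 of all genes rose and 2076 fell. Leaving out 1 library at a time gave 0 to 8 falls in the proteasome; 0 to 6 falls and 0 to 1 rises in CCT; 1 to 5 falls and 2 to 6 rises in heat shock proteins; 0 to 6 falls and 5 to 10 rises in J-domain proteins; 3 to 27 falls and 4 to 10 rises in partners. It gave 2 to 26 falls and 7 to 16 rises in all members, and 1855 to 3848 falls and 2306 to 4213 rises over all genes. The cause of these changes was not tested, and neither was the part played by the smaller number of libraries in such fits.

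Of 58 named genes 14 kept their side of the threshold and their direction under every alternative. Without a mean trend the calls of Cct5, Hspd1, Dnajc7, Psme1, Psme4, Hsf1, Clpb and Clpx were lost. Those that changed sign were uncalled throughout in the reported fit, with small differences. Psmd2 was at -0.040 with library totals, -0.014 with edgeR, -0.027 with DESeq2 and -0.26 without mouse 62, and Psmb6 at -0.012 with library totals and -0.21 without mouse 62. Without mouse 69 the values were 0.096 for Hspa8, 0.25 for Psma7, 0.097 for Dnaja2, 0.11 for Hsp90aa1, 0.28 for Hsph1, 0.12 for Dnajb1, 0.26 for Psmb5, 0.16 for Nfe2l2 and 0.018 for Psmc3. Leaving out 1 library at a time gave -0.24 to 0.19 for Psmd2, -0.15 to 0.23 for Psmb6, -0.65 to 0.051 for Hspa8, -0.31 to 0.15 for Psma7, -0.43 to 0.037 for Dnaja2, -0.72 to 0.010 for Hsp90aa1, -0.42 to 0.11 for Hsph1, -0.43 to 0.056 for Dnajb1, -0.30 to 0.16 for Psmb5 and -0.24 to 0.30 for Nfe2l2. Genes with few reads, such as Dnajb13, Hspb1 and Hspa1a, are limited by counting error, and reads of overlapping genes cannot be told apart without strand.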
